A study of Mus musculus with 3 samples.

Results

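The primed epiblast markers are 10 genes that mouse embryonic stem (ES) cells express as they leave the naive state for that of the epiblast after implantation: Otx2, Fgf5, Fgf15, Pou3f1, Sox3, Zic2, Sall2, Tead2, Pim2 and Car4. They were found on the arrays by gene symbol and transcript accession. All 10 were present, with 12 probes and 21 spots, among 17709 genes tested in all. RNA was measured in ES cells labelled Tet1 KO, with 1 array each for KO 4 and KO 22, and in 1 sample labelled Tet1 WT. All 3 samples were of the V6.5 line, a mixed 129 and C57BL6 background, and were grown with leukaemia inhibitory factor (LIF) on irradiated feeder cells and preplated before extraction, a step that removes feeders. The Tet1 allele, its deleted part and whether KO 4 and KO 22 are separate clones or cultures are not given in the sources used here. The p-values measure only the spread between the KO samples, which may be technical, and WT has no replicate.

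The markers did not share a direction in the Tet1 KO cells. The homeobox gene Otx2 and the growth factor gene Fgf15 stood 4.09-fold and 3.79-fold lower in KO than in WT, while the zinc finger gene Sall2 and the carbonic anhydrase gene Car4 stood 2.11-fold and 2.13-fold higher and Fgf5, the classical epiblast marker, 1.91-fold higher. Zic2, Pim2, Sox3 and Pou3f1 had smaller, lower values in KO, and Tead2 differed by little. No member passed the threshold of 0.05 over all genes (limma adjusted p from 0.0742 for Fgf15 to 0.942 for Tead2), where 0.356% of all genes passed (0.0339% higher and 0.322% lower). With an intensity trend in the variance model, limma called 3 members higher (Fgf5, Sall2, Car4) and 4 lower (Otx2, Fgf15, Zic2, Pim2), beside 8.31% and 10.7% of all genes called higher and lower. The same 3 and 4 were called with normexp background correction, beside 7.73% and 10.6% of all genes. The series matrix values and the requirement of all 3 arrays well above background each called 2 members higher (Sall2, Car4) and 3 lower (Otx2, Fgf15, Zic2), beside 2.69% and 2.79% of all genes for the matrix and 3.05% and 2.51% for the stricter filter.

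The epiblast passes from a naive state before implantation to a primed state after it, through a formative phase in which the cells become able to respond to lineage signals. In mouse ES cells, fibroblast growth factor (FGF) signalling through ERK drives this step. OTX2 is a transcription factor that acts with OCT4 at enhancers of the formative state, and LIF with feeders holds the cells near the naive end. TET1 oxidises 5-methylcytosine, which in mammals lies mainly at CpG, and it binds CpG-rich DNA.

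Promoter windows are shown for the 4 members with the largest differences that have one in the RefSeq promoter table, because CpG is the sequence in which TET1 finds its substrate. Each is the 250 bases before a transcription start on build GRCm38.p6, read 5′ to 3′ on the gene's strand, with every CpG in capitals. Where a gene has several starts, the window with the most CpGs is given. The Otx2 window is chr14:48665110-48665359 (minus strand), that of Sall2 chr14:52316324-52316573 (minus strand), that of Fgf5 chr5:98253934-98254183 (plus strand) and that of Car4 chr11:84957504-84957753 (plus strand).
Otx2: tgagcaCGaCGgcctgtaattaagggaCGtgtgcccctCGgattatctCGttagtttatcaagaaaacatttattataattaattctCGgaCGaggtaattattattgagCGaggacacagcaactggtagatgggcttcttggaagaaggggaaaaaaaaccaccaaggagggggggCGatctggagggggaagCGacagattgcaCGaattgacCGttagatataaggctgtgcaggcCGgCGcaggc
Sall2: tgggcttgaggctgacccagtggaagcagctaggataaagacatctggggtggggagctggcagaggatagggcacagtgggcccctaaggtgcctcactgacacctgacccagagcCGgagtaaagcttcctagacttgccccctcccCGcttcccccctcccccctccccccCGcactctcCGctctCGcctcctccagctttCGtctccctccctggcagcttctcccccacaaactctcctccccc
Fgf5: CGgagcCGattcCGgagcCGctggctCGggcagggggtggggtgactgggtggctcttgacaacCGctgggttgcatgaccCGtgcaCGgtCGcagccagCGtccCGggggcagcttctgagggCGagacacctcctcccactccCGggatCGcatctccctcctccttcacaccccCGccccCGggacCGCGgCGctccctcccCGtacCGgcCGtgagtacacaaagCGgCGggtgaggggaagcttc
Car4: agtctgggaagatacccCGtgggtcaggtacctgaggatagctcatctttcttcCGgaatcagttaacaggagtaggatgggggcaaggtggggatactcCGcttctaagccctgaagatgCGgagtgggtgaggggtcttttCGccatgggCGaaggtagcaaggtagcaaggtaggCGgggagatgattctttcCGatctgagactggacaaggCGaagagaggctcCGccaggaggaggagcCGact
Of the 10 members, 6 matched an entry, with 10 windows between them. The Fgf5 window holds 24 CpGs, and 11.98% of the 32851 promoter windows hold as many. The Pim2 window holds 22 (14.8% hold as many), the Otx2 window above 14 (29.4%), Car4 11 (35.6%), Tead2 7 (46.3%) and the Sall2 window above 6 (50.4%), against a median of 6 over all windows. The other 3 windows of Otx2 hold 6, 8 and 9 CpGs, and the other window of Sall2 holds 0. The letters TAATCC, the core that OTX proteins bind, were found on either strand in the Otx2 window above and in no other of the 10, beside 6.25% of all windows. The letters CATTCC, the core bound by TEAD proteins, were in none of the 10, beside 12.6% of all windows. No methylation or binding was measured here, and a match describes letters only.

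Processed intensities below are the scanner software's background-subtracted values on each array, before scaling between arrays. Differences are log2 levels of KO minus WT after each array was set relative to its 75th percentile, with standard errors from limma (n = 2 KO against 1 WT). The fit draws every gene's spread toward a shared prior (SD 0.09), so an error near 0.09 is a shared minimum and not a precision measured for that gene. The scanner software's own error for a single spot was 10% to 16.8% of the members' intensities. Each array has 43379 spots apart from controls; 62.2% to 62.8% of them were well above background, 0 were saturated, and the number of arrays limits the precision. All members were well above background on all 3 arrays, with 0 outlier flags and 0 surrogate values among their spots. The probe for Tet1 gave 214 and 195 on KO 4 and KO 22 against 721 on WT (-1.94 ± 0.09, limma adjusted p = 0.0529), but whether that probe lies inside the deleted part is not given, so the lower level does not by itself check the labels. Defining ES cell transcripts were present on all arrays, with 7 of 7 markers well above background and Pou5f1, which encodes OCT4, at 21200, 18958 and 25371 on KO 4, KO 22 and WT.

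**Figure D1:**
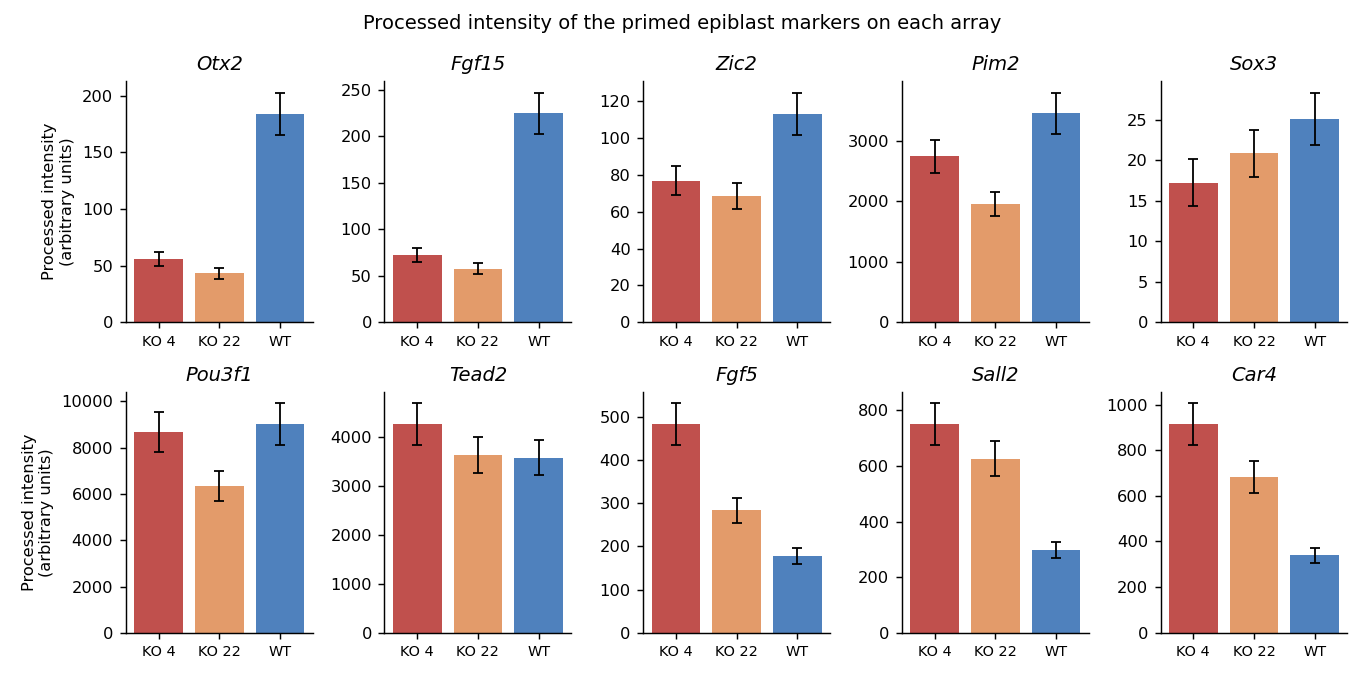
Processed intensity (arbitrary units, linear axes from 0, 1 panel a gene with its own scale) of the 10 primed epiblast markers on KO 4, KO 22 and WT. Bars are the probe that represents the gene (for Otx2 the geometric mean of 10 spots) and error bars are the scanner software's error for a single spot. Otx2 and Fgf15 are low on both KO arrays, and Fgf5, Sall2 and Car4 are high on both. On this axis, before scaling between arrays, Tead2 is higher on KO 4 (4257) than on KO 22 (3623) and WT (3567).

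The ligand genes lay on opposite sides of WT. Fgf15 encodes the mouse counterpart of human FGF19, a secreted factor that signals through FGFR4 with the co-receptor β-Klotho and is made in the post-implantation epiblast and the embryonic brain. Its processed intensity was 72.4 on KO 4 and 57.5 on KO 22, against 224 on WT. Both KO arrays were low, and KO 4 exceeded KO 22 by 0.18, a gap that 28.3% of genes reached. The difference from WT was -1.92 ± 0.13 (limma adjusted p = 0.0742). Over all genes, 0.610% lay as far below WT on both KO arrays. The probe (NM_008003) lies at chr7:141325710-141325769 on the plus strand of build mm7, the build of all probe positions; the part of the transcript that a probe reads was not analysed here.

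Fgf5, which encodes a secreted FGF that marks the epiblast after implantation, gave 483 on KO 4 and 284 on KO 22, against 178 on WT. Both KO arrays were high, but they stood further apart than on any other member, at 1.24 and 0.63 above WT on the log2 scale. The mean difference was 0.93 ± 0.32 (limma adjusted p = 0.192), and 4.59% of genes lay as far above WT on both. KO 4 exceeded KO 22 by 0.61, a gap that 3.81% of genes reached. The KO arrays also differed in fibroblast markers, which can come from feeder cells. The summed level of the 12 measured markers, each relative to its array's 75th percentile, was 54.4 on KO 4 and 40.7 on KO 22, against 31.9 on WT. Of these 12, all were well above background on every array. On both KO arrays 5 were higher and 1 lower, beside 38% and 45.5% of all genes. The median difference of the 12 was 0.85 on KO 4 and -0.06 on KO 22. The brightest was Tagln, a smooth muscle actin-binding protein gene, at 27.3 on KO 4 and 18.6 on KO 22 against 8.16 on WT in the same unit. Without it the other 11 summed to 27.1 on KO 4 and 22.04 on KO 22, with 23.7 on WT, so that KO 22 no longer lay above WT. Their part in the Fgf5 values was not tested. In RNA of bulk cultures, more cells of a type and more RNA per cell cannot be told apart. The Fgf5 probe (NM_010203) lies at chr5:97491844-97491903 on mm7.

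Among the transcription factor genes, Otx2 had the largest difference. It is also the only member with repeated spots, because its probe (NM_144841, chr14:43989807-43989866 on mm7, minus strand) is printed 10 times on the array. Its 10 spots gave 44.8 to 62.7 (median 58.2) on KO 4 and 38.9 to 47.7 (median 43.6) on KO 22, against 164 to 196 (median 189) on WT. No KO spot reached the lowest WT spot, while the spots of KO 4 and KO 22 overlapped. Spot by spot, the difference from WT ran from -2.16 to -1.81 on KO 4 and from -2.34 to -1.88 on KO 22. The repeats cover printing and scanning on 1 array and not the spread between cultures. The mean difference was -2.03 ± 0.14 (limma adjusted p = 0.0766), the 111th lowest of 17709 genes, and 0.576% of genes lay as far below WT on both KO arrays.

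**Figure D2:**
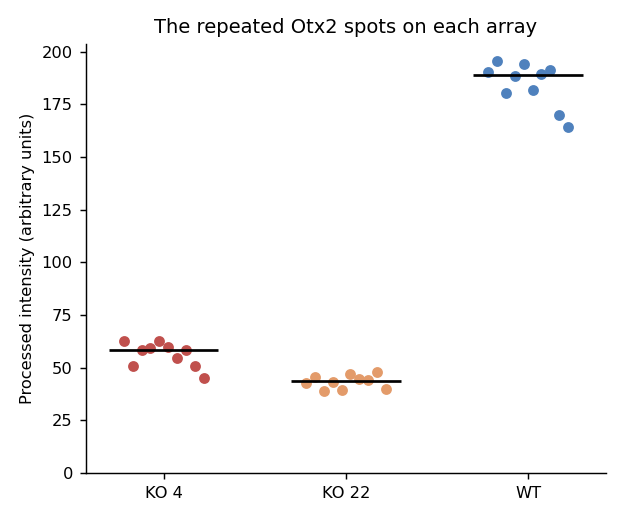
Processed intensity (arbitrary units, linear axis from 0) of the 10 spots of the Otx2 probe on KO 4, KO 22 and WT. Points are spots and bars are medians; the KO spots lie between 38.9 and 62.7, and the WT spots all lie at 164 or above.

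OTX2 is also made in visceral endoderm and anterior neural tissue. Of 8 primitive endoderm markers measured, 7 were lower and 1 higher on both KO arrays (median -1.01), beside 45.5% and 38% of all genes. Foxa2 stood at -1.63 ± 0.12, Sox17 at -1.36 ± 0.09, Lama1 at -1.24 ± 0.10 and Gata6 at -1.17 ± 0.13. None of the 8 passed over all genes, all were well above background on every array, and their summed level was 11.4 on KO 4 and 11.1 on KO 22, against 12.2 on WT. That sum is carried by Sparc, the brightest of them and the one that was higher, at 7402 and 6450 on KO 4 and KO 22 against 5976 on WT. Without it the other 7 summed to 1.14 and 1.096 on KO 4 and KO 22, against 2.58 on WT. Of 8 neural markers on the arrays 7 entered the fit. Of these, 4 were lower and 1 higher on both (median -0.22), beside 45.5% and 38% of all genes. None of the 7 passed, and Pax6 stood at -1.71 ± 0.20. The summed level of the 7 was 6.52 and 6.001 on KO 4 and KO 22, against 10.08 on WT, and all 7 were well above background. Without Nes, the brightest, the sums were 0.656 and 0.638 against 1.13. The part of either cell type in the Otx2 and Fgf15 values was not tested.

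Zic2 encodes a zinc finger factor that occupies enhancers in ES cells and acts later in the neural plate. Its probe gave 77.0 on KO 4 and 68.4 on KO 22, against 113 on WT. Both KO arrays were lower by nearly the same amount, at -0.76 and -0.78, with a mean of -0.77 ± 0.09 (limma adjusted p = 0.1). Over all genes, 2.72% lay as far below WT on both. The probe (NM_009574) lies at chr14:116884204-116884263 on mm7.

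Sox3, an X-linked relative of Sox2, was dim on every array, with 17.2 on KO 4 and 20.8 on KO 22, against 25.1 on WT. Both KO arrays were lower, at -0.75 and -0.32, and the lowest value stood only 0.61 on the log2 scale above the dimmest probe that was well above background. Its difference of -0.53 ± 0.23 did not pass (limma adjusted p = 0.251), and 13.0% of genes lay as far below WT on both arrays. The probe (NM_009237) lies at chrX:56286797-56286856, minus strand.

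Pou3f1, which encodes the POU factor OCT6, had 8685 on KO 4 and 6335 on KO 22, against 9016 on WT. The KO values were lower after scaling, at -0.26 and -0.56, with a mean of -0.41 ± 0.17 (limma adjusted p = 0.248). That lies within the range of many genes, since 17.4% lay as far below WT on both. The probe (NM_011141) lies at chr4:124103741-124103800.

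Sall2, a zinc finger gene of the spalt family, had 751 on KO 4 and 626 on KO 22, against 298 on WT. It was the only member at least 2-fold above WT on both KO arrays, at 1.13 and 1.02, beside 1.45% of all genes. The mean difference was 1.08 ± 0.10 (limma adjusted p = 0.0971), and 1.34% of genes lay as far above WT on both. Its probe (NM_015772) lies at chr14:47644999-47645058 on mm7, minus strand. Otx2, Zic2 and Sall2 thus all lie on chromosome 14, and they did not share a direction.

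Tead2 encodes a TEAD factor, the DNA-binding partner of the co-activator YAP, and is measured by 2 probes. The probe that represents it had 4257 on KO 4 and 3623 on KO 22, against 3567 on WT, and the other had 3509 and 3523 against 2912. After scaling, the first lay at 0.05 and -0.03 and the second at 0.07 and 0.23. The KO arrays lay on both sides of WT by the first probe and above it by the second, and neither passed (limma adjusted p = 0.944 and 0.483 in the fit over all 26526 probes). The probes (NM_011565) lie at chr7:41407970-41408029 and chr7:41409172-41409231.

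The remaining markers are a kinase and an enzyme. Pim2 encodes a serine/threonine kinase that promotes survival and growth and is X-linked. Its brighter probe had 2743 on KO 4 and 1954 on KO 22, against 3451 on WT, and its other probe 1344 and 950 against 1619. Both probes placed KO 4 and KO 22 below WT, by -0.53 and -0.87 for the brighter one and -0.47 and -0.82 for the other. The difference of the brighter probe was -0.70 ± 0.19 (limma adjusted p = 0.152), and 5.31% of genes lay as far below WT on both arrays. The probes (NM_138606) lie at chrX:6316238-6316298 and chrX:6315702-6315761.

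Car4, which encodes a membrane-anchored carbonic anhydrase that hydrates carbon dioxide, had 914 on KO 4 and 682 on KO 22, against 339 on WT. Both KO arrays were high, at 1.23 and 0.96, with a mean of 1.09 ± 0.16 (limma adjusted p = 0.103), and 1.59% of genes lay as far above WT on both. The probe (NM_007607) lies at chr11:85034716-85034775. Most trophoblast markers were higher as well. Of 9 on the arrays 8 entered the fit. Of these, 7 were above WT on both KO arrays and 1 below, beside 38% and 45.5% of all genes. The summed level of the 8 was 99.6 on KO 4 and 84.0 on KO 22, with 63.2 on WT. Without the keratin gene Krt8, the brightest, the sums were 15.2 and 15.8, with 11.02 on WT. All 8 were well above background on every array and none passed over all genes. Their part in the values of Car4, Sall2 and Fgf5 was not tested.

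**Figure D3:**
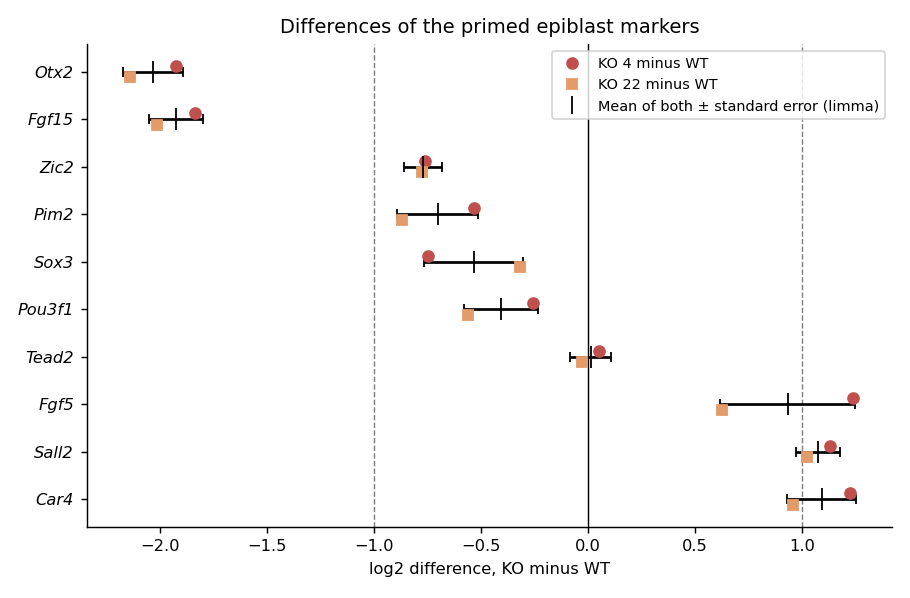
Log2 difference from WT of the 10 primed epiblast markers on KO 4 (circles) and KO 22 (squares), with the mean of both and its standard error from limma (black). Dashed lines mark 2-fold; Otx2 and Fgf15 lie beyond -1 on both KO arrays, Sall2 lies beyond 1 on both, and the points of Tead2 straddle 0.

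Across the 10 members, 6 were lower and 3 higher than WT on both KO arrays, and Tead2 lay on both sides. Over all genes, 45.5% were lower and 38% higher on both. At least 2-fold apart on both arrays were 2 members below WT (Otx2, Fgf15), beside 1.56% of all genes, and 1 above. At an unadjusted p below 0.05, limma had 4 members lower (Otx2, Fgf15, Zic2, Pim2) and 2 higher (Sall2, Car4), beside 15% and 13.2% of all genes. The median difference of the members was -0.47, against -0.03 over all genes, and the median size regardless of sign was 0.85 against 0.22. KO 4 lay above KO 22 for 9 of the 10 members, all but Sox3, beside 47% of all genes. The spots around the members were searched for large differences. Of 455 spots within 2 rows and columns of the spots of the representing probes, 1 (beside an Otx2 spot) was at least 4-fold brighter on WT than on both KO arrays and 0 were brighter by that much on both KO arrays. The share of such spots over the whole array is not given here, so these counts have no background beside them. Most members differed by less than 4-fold, and a patch of that smaller size would not be counted.

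Other genes of the formative and primed states lay on both sides of WT, more of them below. All 24 such genes were on the arrays and 23 entered the fit. Of these, 15 were lower and 6 higher on both KO arrays, beside 45.5% and 38% of all genes. Their median stood at -0.31, or -0.21 by KO 4 alone and -0.43 by KO 22 alone. None passed over all genes in limma. Before adjustment 8 had a limma p below 0.05 downward and 2 upward, beside 15% and 13.2% of all genes. Fgf8, an FGF ligand of epiblast and primitive streak, had 617 on KO 4 and 394 on KO 22 against 162 on WT (1.48 ± 0.26, limma adjusted p = 0.112). Of 6 mesendoderm markers on the arrays, which mark the streak, 5 entered the fit and were well above background on every array. Of these 5, 3 were higher and 2 lower on both KO arrays, beside 38% and 45.5% of all genes, and 0 passed. Their summed level was 0.885 on KO 4 and 0.608 on KO 22, with 0.327 on WT, and most of it came from the ligand gene Wnt3, at 505 and 283 on KO 4 and KO 22 against 105 on WT. Without Wnt3 the other 4 summed to 0.181 and 0.169 on KO 4 and KO 22, against 0.159 on WT. That sum joins genes on both sides of WT. T had 37.7 on KO 4 and 23.4 on KO 22 against 11.8 on WT, and Mesp1 was also higher on both KO arrays. Gsc and Evx1 were lower on both. The part of these markers in the Fgf8 value was not tested. Dnmt3a, a de novo DNA methyltransferase gene, had 1498 and 1091 against 2572 (-1.13 ± 0.17, limma adjusted p = 0.106). Krt18, a keratin gene also active in trophectoderm, stood at 0.94 ± 0.11 (limma adjusted p = 0.101). The cadherin gene Cdh2 stood at -0.96 ± 0.40 (limma adjusted p = 0.241) and was not well above background on KO 22.

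Naive pluripotency genes lay on both sides of WT. Of 18 genes 16 were measured, 6 higher and 7 lower on both KO arrays, beside 38% and 45.5% of all genes. Their median difference was -0.02, and 0 passed in limma. Before adjustment 2 had a limma p below 0.05 upward and 2 downward, beside 13.2% and 15% of all genes. Dppa3, a maternal and germline factor gene of naive cells, had 16155 on KO 4 and 13861 on KO 22 against 6920 on WT (0.99 ± 0.09, limma adjusted p = 0.0971). The transcription factor genes Tbx3, Esrrb and Klf4 stood at -0.50 ± 0.09, -0.47 ± 0.09 and 0.40 ± 0.09.

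The receptors and feedback genes downstream of FGF were also mixed, with a median of 0.04. Of the 16, 8 were higher and 5 lower on both KO arrays, beside 38% and 45.5% of all genes. Spry4, which encodes an inhibitor of FGF signalling to ERK, had 10.2 on KO 4 and 9.17 on KO 22 against 62.1 on WT. It was not well above background on either KO array, and in the values as reported it was at least 6.42-fold lower. That bound does not cover the alternatives. Spry4 stood at -2.81 in the values as reported, -0.90 with normexp and -2.01 in the series matrix. It is the 1 gene of the list with a limma adjusted p below 0.05 (0.0346), but it entered the fit only through WT, where it is high, and nothing is read from this p. Its adjusted p was 0.17 without a filter, and the requirement of all 3 arrays well above background removes it. Of the 24 neighbours of its spot, 1 was at least 4-fold brighter on WT alone, with no share over all spots beside it. Klb, which encodes β-Klotho, the co-receptor through which FGF15 acts, had 20.2 and 18.1 against 56.2 (-1.68 ± 0.09, limma adjusted p = 0.0611). Its KO values were about as dim as those of Sox3, and the difference was -0.64 with normexp and -1.27 in the series matrix. The receptor gene Fgfr1 stood at 0.62 ± 0.11 and the ERK phosphatase gene Dusp4 at 0.76 ± 0.12, and neither passed (limma adjusted p = 0.111 and 0.106). Fgfr4, the receptor of FGF15, was split between the KO arrays, at -0.06 and 0.17.

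**Figure D4:**
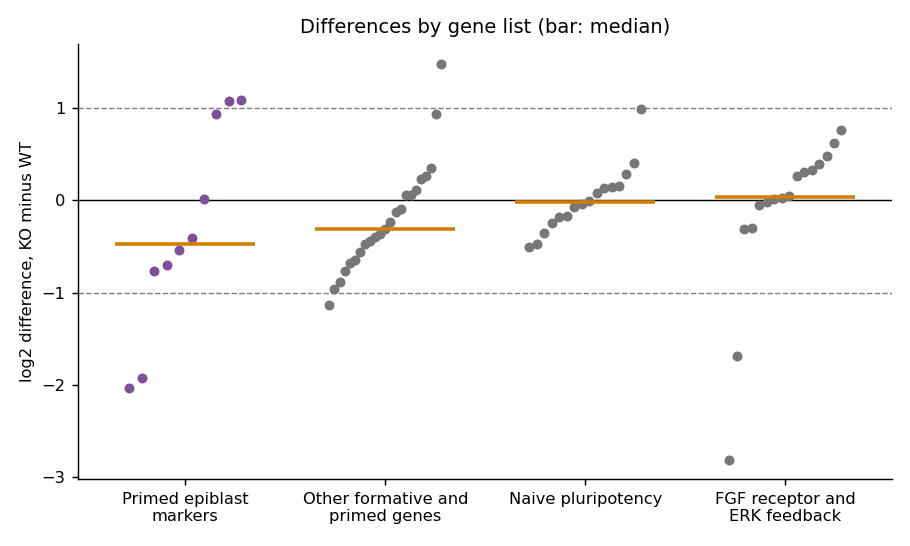
Log2 difference, KO minus WT (mean of KO 4 and KO 22), of each measured gene in 4 groups: the primed epiblast markers, other formative and primed genes, naive pluripotency genes, and FGF receptor and ERK feedback genes. Points are genes in rising order, bars are medians (-0.47, -0.31, -0.02 and 0.04) and dashed lines mark 2-fold; the markers spread to both sides of 0.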

How the data were processed

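RNA of 2 Tet1 KO samples and 1 WT sample was hybridised to 1-colour (Cy3) Agilent arrays on 1 slide, scanned together. Per the file headers, Agilent Feature Extraction 10.1.1.1 made the deposited intensity of each spot by subtracting background and detrending within the array. The deposited series matrix holds log2 values that are quantile-matched between arrays (each median 5.52); whether background was corrected is unknown. It served as an alternative. The submitters' processing notes name limma.

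Log2 processed intensity was set relative to each array's 75th percentile (717.7 on KO 4, 644.9 on KO 22 and 623.7 on WT). Spots with outlier flags were left out and repeated spots averaged. Of 41174 probes, 32719 (79.5%) were named through the reference table (GRCm38.p6) by accession, symbol or synonym. Probes well above background on at least 1 array entered, the brightest representing its gene, and limma 3.58.1 in R 4.3.3 compared KO with WT over all genes with Benjamini-Hochberg adjustment at 0.05. Only the KO pair informs the spread, leaving 1 residual degree of freedom, or 3.03 after moderation. A lower bound sets the bright group against the higher of the dim probe's value and the lowest value well above background.

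The members, lists and alternatives were chosen with earlier results of these data known. The text names every member, Tet1, and from each list the genes called and the 4 largest differences, besides Fgfr4, which was added after its values were seen. Of each marker list, only examples are named, and its sum without the brightest marker was added after the values were seen. The alternatives were quantile normalization, normexp background correction (offset 50), the series matrix, both filters on dim probes, an intensity trend, the mean over probes, and each KO array alone.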

Additional observations from a re-analysis of the deposited data

How the results depend on the processing

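No paired analysis was possible because WT has 1 array and shares no replicate number with KO. All 10 members kept their direction under all 7 alternatives that use both KO arrays; with KO 22 alone Tead2 turned to -0.03. Otx2, Fgf15, Zic2, Sall2 and Car4 passed in 4 of the 8 settings and Fgf5 and Pim2 in 2, and Pou3f1, Sox3 and Tead2 in 0. The limma adjusted p ranged from 1.7e-07 to 0.17 for Otx2 and from 0.0011 to 0.338 for Fgf5. The lowest value of each came with normexp, where moderation left 19.2 degrees of freedom against 3.03 in the values as reported. Those low values rest on the same 3 arrays, with WT unreplicated. The size of the differences of Otx2 and Fgf15 shrank to -1.25 and -1.24 with normexp (8 spots dimmer than their background left out). Its offset compresses dim values, and it also starts from the mean signal of each spot in place of the processed intensity. The cause of these and the other moves was not tested.

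With an intensity trend, 3 members were called higher and 4 lower, with 2 and 8 of the other formative and primed genes, 3 and 2 of the naive genes, 4 and 2 of the FGF genes, and 1472 and 1900 of all genes. Normexp called 3 and 4 members, 2 and 9 other formative and primed, 2 and 2 naive, 4 and 2 FGF genes, and 1369 and 1880 of all. In the series matrix values the calls were 2 and 3 members, 2 and 1 other formative and primed, 1 naive higher and 2 FGF genes lower. Over all genes they were 476 and 494, against 6 and 57 in the values as reported. The FGF genes called lower in each of these alternatives were Klb and Spry4. Spry4 entered the fit only through WT, where it is high, so nothing is read from its calls. Requiring all 3 arrays above background called 2 and 3 members, 1 and 1 other formative and primed, 1 naive gene higher, 1 FGF gene higher (Dusp4) and 1 lower (Klb, since Spry4 is not tested there), and 500 and 411 of all. Without a filter 0 and 0 of all genes were called by limma, 0 FGF genes among them (Spry4 at an adjusted p of 0.17), with 2587 and 3381 of all genes at an unadjusted p below 0.05.

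Genes at least 2-fold above and below WT on both KO arrays numbered 256 and 277, against 57 and 52 with normexp, 109 and 180 in the series matrix, 152 and 131 with all 3 arrays required, and 385 and 521 without a filter. With 1 KO array alone the counts ran from 423 to 486 above and from 381 to 388 below. The median of the members was -0.31 with normexp and -0.36 in the series matrix, and -0.44 and -0.40 with 1 KO array alone. That of the other formative and primed genes ran from -0.43 to -0.21 with 1 KO array alone. The naive median was 0.035 with quantile normalization, 0.016 with normexp, 0.051 in the series matrix, and -0.019 and -0.0090 with 1 KO array alone. The FGF median was 0.057, 0.052 and 0.085 under the same 3 settings, 0.054 with all 3 arrays required, 0.14 as the mean over probes, and 0.067 and 0.072 with 1 KO array alone. Dim probes such as Sox3 limit what can be told from these arrays.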
